A study of Homo sapiens with 6 samples.

Results

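The sterol-sensing machinery of the SREBP pathway was examined in U2OS cells, an established human osteosarcoma line, after silencing of squalene epoxidase (SQLE), an enzyme of cholesterol synthesis. The genes are SREBF1, SREBF2, SCAP, INSIG1, INSIG2, MBTPS1 and MBTPS2 of this machinery, and STARD4, which encodes a cholesterol carrier. They were chosen by function, matched to the count table by Ensembl identifier, and all 8 were found among its 19937 genes and passed the filter on low counts. The 6 libraries were 3 of shSQLE and 3 of shControl. Cells of both groups had been infected with a lentivirus made from the pGIPZ plasmid, carrying a short hairpin RNA against SQLE in shSQLE and a scrambled hairpin in shControl, and were selected with puromycin as stable lines in medium with fetal bovine serum. The groups therefore differ by hairpin and by separately selected populations, and since no label ties a library to a culture of its own, SDs and p-values measure the spread among these libraries.

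Sterol regulatory element-binding proteins (SREBPs) are transcription factors made as inactive precursors in the membrane of the endoplasmic reticulum (ER). When sterols are scarce, the escort protein SCAP carries them to the Golgi apparatus, where the site-1 and site-2 proteases release the part that enters the nucleus and switches on genes of sterol and fatty acid synthesis and of lipoprotein uptake. When sterols are abundant, the Insig proteins hold SCAP and its cargo in the ER. SREBF1 encodes SREBP-1, whose 1c form mainly drives fatty acid synthesis and is itself induced by the oxysterol receptor LXR, and SREBF2 encodes SREBP-2, which mainly drives cholesterol synthesis and uptake. INSIG1, SREBF2 and STARD4 are known SREBP-2 targets.

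Counts on genes ranged from 12212378 to 14393292 per library. SQLE, the targeted gene, had normalized counts (counts scaled to a library of mean effective size) of 1349, 1867 and 1924 in shControl and of 229.1, 204.0 and 218.9 in shSQLE. Every shSQLE library thus matched its label. The libraries of shControl were not alike. They were compared in log2 CPM (counts scaled to effective library size, with a small count added). The median absolute difference over all genes tested was 0.41 and 0.45 between shControl replicate 1 and the other controls. It was 0.09 between shControl replicates 2 and 3 and 0.11 to 0.21 among the shSQLE libraries. Results that rest on shControl replicate 1 are given with and without it. Of the markers of the osteoblast lineage, RUNX2, COL1A1, SPARC and VIM were present, with COL1A1 lower in shSQLE (164.4 ± 6.64 and 104.4 ± 4.13 normalized counts, SD, n = 3 each, adjusted p = 0.0452 by edgeR). That call was lost in 3 of 7 other settings and without any 1 library but shControl replicate 1 (adjusted p from 0.131 to 0.253). RUNX2, SPARC and VIM were at -0.29, -0.28 and 0.17 on the log2 scale and were not called. Without shControl replicate 1 they were at -0.41, -0.28 and 0.24 (adjusted p = 0.0369, 0.0113 and 0.0458 by edgeR). That fit called 18.3% of the genes tested lower and 15.6% higher. The alkaline phosphatase gene ALPL had at most 2 counts in any library. The leukocyte markers PTPRC and CD3E were at 0 in all 6 libraries, and CDH5 had at most 1 count. CDH1 had 2, 2 and 1 counts in shControl and 0 in every shSQLE library. The endothelial and platelet marker PECAM1 had 9, 15 and 15 counts in shControl and 4, 6 and 2 in shSQLE. These groups did not overlap, where 12.1% of all genes tested lay wholly below in shSQLE. The change of PECAM1 was -1.67 on the log2 scale (adjusted p = 0.0933 by edgeR), and -1.79 without shControl replicate 1 (adjusted p = 0.0167). The epithelial marker EPCAM had 51.9 and 68.7 normalized counts in shControl and shSQLE, with every shSQLE library higher, as in 10.0% of all genes tested. The change of EPCAM was 0.40 on the log2 scale (adjusted p = 0.362 by edgeR), and 0.42 without shControl replicate 1 (adjusted p = 0.13). The part of these markers in the results was not tested.

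In hg38, INSIG1 (ENSG00000186480) lies on the + strand of chromosome 7 from 155297776 to 155310235, SREBF2 (ENSG00000198911) on the + strand of chromosome 22 from 41833105 to 41907306, STARD4 (ENSG00000164211) on the - strand of chromosome 5 from 111496033 to 111512590, and SREBF1 (ENSG00000072310) on the - strand of chromosome 17 from 17810399 to 17837002. SCAP (ENSG00000114650) lies on chromosome 3 from 47413681 to 47477126 (- strand), INSIG2 (ENSG00000125629) on chromosome 2 from 118088452 to 118110997 (+ strand), MBTPS1 (ENSG00000140943) on chromosome 16 from 84053761 to 84116942 (- strand) and MBTPS2 (ENSG00000012174) on chromosome X from 21839617 to 21885423 (+ strand). The promoters of the 8 genes in RefSeq (GRCh38.p14, from 250 bases before to 50 after the start site) were searched on both strands for 4 short motifs: a core of the sterol regulatory element (SRE), CACNCCAC, the E-box, CACGTG, the NF-Y box, CCAAT, and the GC box, GGGCGG. NF-Y and the GC-box factor Sp1 are known partners of SREBPs. SREBF2 and INSIG1 held the SRE core, which 5.87% of 35116 promoters hold. SREBF2, INSIG1 and STARD4 held the NF-Y box, found in 34.6% of promoters. INSIG1 and SCAP held the E-box (7.26% of promoters), and the GC box (45.0% of promoters) was found in all but MBTPS1 and MBTPS2. The following 3 stretches of 100 bases are shown because they hold the SRE cores and NF-Y boxes of genes that differ in their response below. They lie before the annotated start of each gene, read 5′ to 3′ along the gene's strand, with the letters of these motifs, on either strand, in capitals.
INSIG1, chr7:155297628-155297727, + strand: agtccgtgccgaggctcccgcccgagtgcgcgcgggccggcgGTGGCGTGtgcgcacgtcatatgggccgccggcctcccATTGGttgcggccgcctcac
SREBF2, chr22:41832945-41833044, + strand: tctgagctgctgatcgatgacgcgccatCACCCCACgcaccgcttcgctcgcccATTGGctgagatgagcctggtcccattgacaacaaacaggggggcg
STARD4, chr5:111512636-111512735, - strand: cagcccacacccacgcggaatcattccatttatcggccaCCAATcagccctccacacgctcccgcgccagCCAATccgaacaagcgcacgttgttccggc

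In INSIG1 the core is read on the opposite strand, and in SREBF2 on the gene's own. The RefSeq promoter of SREBF1 held none of the SRE core, E-box or NF-Y box and 3 GC boxes. RefSeq gives 1 start site here for SREBF1, so only this window was searched. Whether it belongs to the 1a or the 1c transcript was not examined, and motifs at another start site of SREBF1 would not be seen. Gene counts do not separate its 1a and 1c transcripts. A match is a description of the letters in this window and was not tested as a binding site.

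Each SREBP gene also hosts a microRNA of the miR-33 family, known to repress cholesterol export genes, within its bounds and on its strand. They are shown because the pair shares its seed (bases 2 to 8, in capitals), and poly(A) gene counts do not measure either of them.
hsa-miR-33a-5p, in SREBF2: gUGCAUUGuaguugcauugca
hsa-miR-33b-5p, in SREBF1: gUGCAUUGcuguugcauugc

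SREBF1 and INSIG1 were lower in shSQLE, at 54.5% and 61.5% of their shControl means, whereas SREBF2 was at 101%. Of the 8 genes, 2 passed the threshold of an adjusted p under 0.05 in the lower direction and 0 in the higher, where 2.84% of the 12450 genes tested were lower and 0.369% higher (quasi-likelihood test of edgeR, Benjamini-Hochberg adjusted over all genes tested). At an unadjusted p under 0.05, 4 were lower and 0 higher, against 1231 lower and 601 higher of the 12450 genes tested. In SREBF1, INSIG1, INSIG2 and STARD4, the groups were separate with shSQLE below, and in 0 of the 8 genes with shSQLE above, where 12.1% of all genes tested lay wholly below and 10.0% wholly above. DESeq2 called SREBF1, INSIG1 and STARD4 lower and 0 higher, against 4.02% of 13824 genes lower and 1.14% higher. In these bulk samples, fewer cells expressing a gene and less RNA per cell cannot be told apart. The counts measure RNA, and neither protein levels nor the cleavage of SREBPs.

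**Figure D1:**
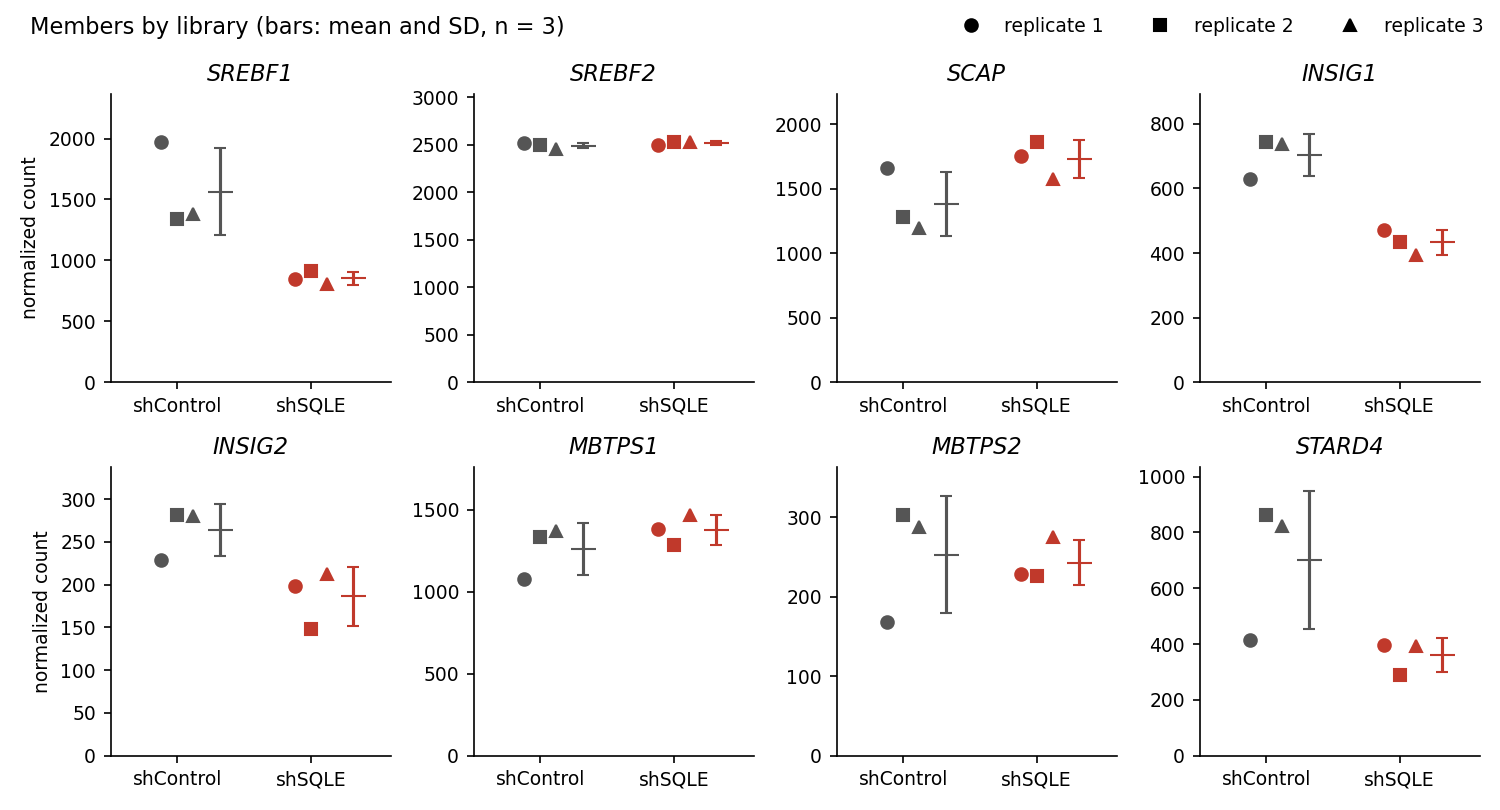
Normalized counts of the 8 genes (vertical axes, each from 0) in the 3 shControl and 3 shSQLE libraries, with the mean and SD of each group beside the points. In SREBF1, INSIG1, INSIG2 and STARD4 the groups do not overlap, and SREBF2 lies between 2458 and 2531 in all 6 libraries.

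The SREBP genes themselves differed. SREBF1 had normalized counts, listed here and throughout from replicate 1 to 3, of 1975, 1341 and 1378 in shControl and of 844.1, 909.7 and 803.8 in shSQLE. The control libraries were all higher, and shControl replicate 1 stood above the other controls. The means were 1565 ± 356 and 852.5 ± 53.5 (SD, n = 3 each), a change of -0.88 on the log2 scale (standard error, SE, 0.17, adjusted p = 0.0332 by edgeR). Without shControl replicate 1 the change was smaller, -0.67 (adjusted p = 0.000143), and without any 1 of the other 5 libraries it lost its call (adjusted p from 0.0548 to 0.195). SREBF1 overlaps RAI1 on the opposite strand over 1055 bp, and whether the counting used the strand is not given in the sources used here. RAI1 stood at 1173 ± 40.5 and 1136 ± 69.8 normalized counts in shControl and shSQLE, a log2 fold change of -0.05.

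SREBF2 had 2520, 2491 and 2458 normalized counts in shControl and 2497, 2531 and 2523 in shSQLE. The groups overlapped and the libraries lay closer together than those of any other member. Its log2 fold change was 0.02 (95% interval -0.19 to 0.23, adjusted p = 0.965). Since the ratio of both genes within a library does not depend on library size, it was also compared directly. The SREBF1 to SREBF2 ratio of counts was 0.784, 0.538 and 0.561 in shControl, with replicate 1 first, and 0.338, 0.359 and 0.319 in shSQLE. All shSQLE libraries were lower, by 0.87 on the log2 scale (-0.69 ± 0.30 against -1.56 ± 0.09, SD, n = 3 each; p = 0.1 by a two-sided exact permutation test, which cannot go lower with 3 libraries against 3).

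The Insig genes, whose products retain SCAP, were both lower in every shSQLE library. INSIG1, a direct SREBP target, had normalized counts of 629.3, 745.2 and 737.7 in shControl and of 472.0, 432.7 and 393.7 in shSQLE. The groups were well apart, and shControl replicate 1 was the lowest control. Its means were 704.1 ± 64.8 and 432.8 ± 39.2 (SD, n = 3 each), a change of -0.70 on the log2 scale (SE 0.13, adjusted p = 0.0293 by edgeR). The change was -0.78 without shControl replicate 1 (adjusted p = 0.000144), and the call was lost without any 1 of the other 5 libraries (adjusted p from 0.111 to 0.168).

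INSIG2, which is not a classical SREBP target, had 228.6, 281.2 and 280.6 normalized counts in shControl and 197.8, 147.8 and 212.8 in shSQLE. The lowest control lay just above the highest shSQLE library. Its log2 fold change was -0.50 (95% interval -0.91 to -0.09), with an adjusted p of 0.229 that did not pass the threshold and was 0.00872 without shControl replicate 1. The INSIG1 to INSIG2 ratio of counts was 2.75, 2.65 and 2.63 in shControl and 2.39, 2.93 and 1.85 in shSQLE. The groups overlapped, with a difference of -0.19 on the log2 scale that was smaller than the SD of 0.33 among the shSQLE libraries (two-sided exact permutation test, p = 0.5).

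SCAP, the escort protein that carries SREBPs out of the ER, had 1663, 1279 and 1197 normalized counts in shControl and 1749, 1864 and 1577 in shSQLE. Only shControl replicate 1 reached into the shSQLE range. The log2 fold change was 0.33 (95% interval -0.02 to 0.67, adjusted p = 0.372), and 0.48 without shControl replicate 1 (adjusted p = 0.00209). Set against each other per kilobase of canonical transcript (GENCODE v44), the summed counts of INSIG1 and INSIG2 were 0.718, 1.12 and 1.18 times those of SCAP in shControl, and 0.530, 0.434 and 0.526 times in shSQLE. Every shSQLE library was lower, by 0.99 on the log2 scale (-0.03 ± 0.39 against -1.02 ± 0.16, SD, n = 3 each; p = 0.1 by a two-sided exact permutation test, which cannot go lower with 3 libraries against 3).

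**Figure D2:**
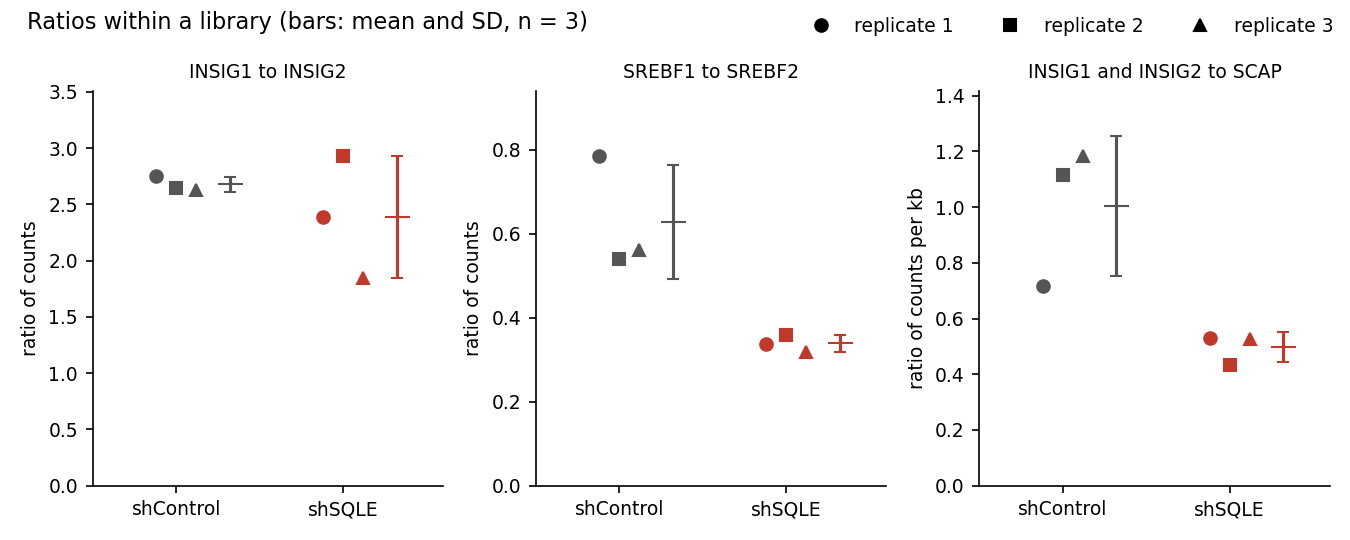
Ratios of counts within each library (vertical axes, from 0) for the Insig pair, the SREBP pair and, per kilobase of transcript, both Insig genes against SCAP, with the mean and SD of each group beside the points. The groups overlap in the first ratio and are separate in the other two, with shControl replicate 1 the control nearest to shSQLE in the third.

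The genes of the Golgi proteases that cleave SREBPs showed no change past the threshold. MBTPS1, which encodes the site-1 protease, had 1075, 1331 and 1367 normalized counts in shControl and 1383, 1283 and 1466 in shSQLE. Its log2 fold change was 0.13 (95% interval -0.17 to 0.43, adjusted p = 0.731 by edgeR), and 0.03 without shControl replicate 1 (adjusted p = 0.813). MBTPS2, which encodes the site-2 protease, had 168.6, 302.9 and 288.4 in shControl and 228.2, 225.7 and 275.5 in shSQLE, so that shControl replicate 1 was the lowest of all and the other controls the highest. Its log2 fold change was -0.06 (95% interval -0.59 to 0.46, adjusted p = 0.939), and -0.28 without shControl replicate 1 (adjusted p = 0.0948). The interval for MBTPS2 is wide and holds the value found for INSIG2, so these libraries do not exclude a change of that size. YY2, which shares the locus of MBTPS2 on the same strand, had 9.83 and 13.3 normalized counts in shControl and shSQLE.

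STARD4 encodes a soluble carrier that moves cholesterol between membranes and to the ER. It had 415.7, 861.8 and 824.0 normalized counts in shControl and 397.6, 289.8 and 392.6 in shSQLE. The shControl replicates 2 and 3 were far above shSQLE, and shControl replicate 1 lay just above its highest library. The means were 700.5 ± 247 and 360.0 ± 60.9 (SD, n = 3 each). Its log2 fold change of -0.96 was the largest in size of the 8 genes (95% interval -1.60 to -0.32), but with an adjusted p of 0.136 by edgeR it did not pass the threshold. DESeq2 gave -0.94 with an adjusted p of 0.0201, and without shControl replicate 1 edgeR gave -1.23 with an adjusted p of 1.72e-05. STARD4 overlaps the antisense transcript STARD4-AS1 on the opposite strand, which was not used here.

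Without shControl replicate 1, edgeR called INSIG1, INSIG2, SREBF1 and STARD4 lower and SCAP higher. The same fit called 18.3% of 12570 genes lower and 15.6% higher, so many more genes of every kind passed the threshold in it.

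**Figure D3:**
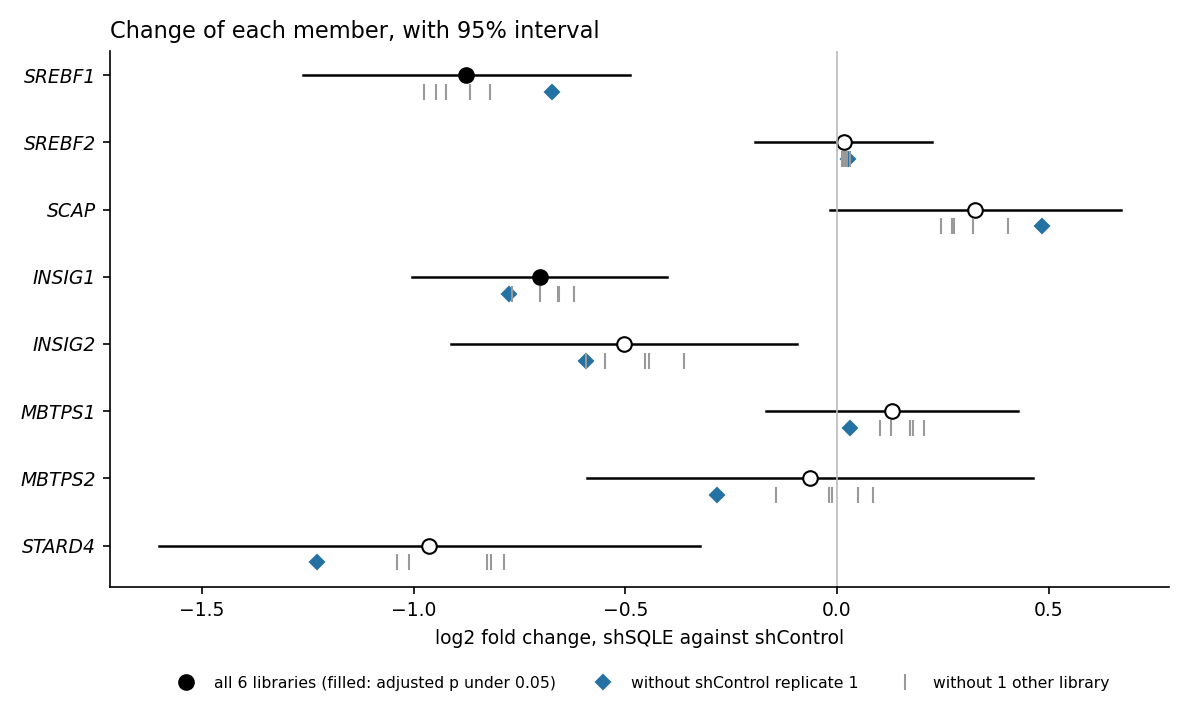
Log2 fold change of shSQLE against shControl for each gene (circle, with its 95% interval as a line; filled where the adjusted p is under 0.05), with the values without shControl replicate 1 (diamonds) and without each other library (ticks) below it. SREBF1, INSIG1, INSIG2 and STARD4 lie below 0 and SCAP and MBTPS1 above 0 in every fit drawn, while MBTPS2 takes both signs.

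The levels of the 8 genes were compared per kilobase of canonical transcript. In this scale SREBF2 was the most abundant, at 475.4 ± 5.87 normalized counts per kilobase in shControl and 480.6 ± 3.41 in shSQLE (SD, n = 3 each). SCAP, SREBF1, MBTPS1 and INSIG1 followed in shControl at 324.3 ± 58.5, 319.3 ± 72.5, 287.4 ± 36.4 and 242.1 ± 22.3, and the first 3 of these neighbours did not differ beyond their spread. STARD4 stood at 151.3 ± 53.4, and INSIG2 and MBTPS2 were the lowest at 73.97 ± 8.47 and 56.98 ± 16.6. In shSQLE the order was SREBF2, SCAP (406.6 ± 34.0), MBTPS1 (314.6 ± 20.9), SREBF1 (173.9 ± 10.9), INSIG1 (148.8 ± 13.5), STARD4 (77.73 ± 13.1), MBTPS2 (54.68 ± 6.31) and INSIG2 (52.25 ± 9.54). SREBF1 thus stood below MBTPS1 in every shSQLE library, and the last 2 did not differ beyond their spread.

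The other genes of the pathway were grouped in 8 lists by their place in it, and 4 of their 92 genes tested passed the adjusted p, all lower in shSQLE. That is 4.35%, close to the 2.84% of all genes tested, so the single calls below are values of those genes and not results of their lists. Without shControl replicate 1, 32 of the 92 were lower and 10 higher (34.8% and 10.9%), where 18.3% and 15.6% of all genes were. The ER list held 10 ubiquitin ligases and cofactors that act on Insig, SCAP or other sterol-regulated proteins. Of these, 1 was lower and 0 higher, with a median log2 fold change of -0.03 against -0.01 for all genes tested. It was RNF145, a ligase that acts on SCAP, whose mean normalized count was 2990 ± 224 in shControl and 1490 ± 123 in shSQLE (SD, n = 3 each). RNF145 fell by 1.005 on the log2 scale (SE 0.11, adjusted p = 0.00370 by edgeR). RNF145 kept its call in all 6 fits that left out 1 library. Without shControl replicate 1 the list had a median of -0.06, with 2 genes lower and 0 higher.

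Of the 13 genes of ER exit, mostly subunits of the COPII coat that packages SCAP and its cargo, 1 was lower and 0 higher, with a median of -0.22. This median rests on single libraries, at -0.06 without shControl replicate 2, -0.04 without shControl replicate 3 and -0.07 without shSQLE replicate 2, and it was -0.27 without shControl replicate 1, where 7 genes were lower and 2 higher. The gene called with all 6 libraries in the fit was SEC24D, a cargo-binding subunit, at 617.7 ± 185 and 294.1 ± 27.2 normalized counts (SD, n = 3 each), a change of -1.07 on the log2 scale (adjusted p = 0.0498 by edgeR). The call was lost in 3 of 7 other settings and without any 1 library but shControl replicate 1 (adjusted p from 0.136 to 0.220). The list of SPRING1, which matures the site-1 protease, with other substrates of the Golgi proteases held 8 genes that were tested, and CREB3L3 was not, at 1 count or fewer per library. In it 7 had a log2 fold change below 0, where 6420 of the 12450 genes tested did. The median was -0.37, and 1 gene was called lower and 0 higher. It was CREB3L2, a membrane-bound transcription factor, at 669.9 ± 113 and 401.1 ± 18.6 (log2 fold change -0.74, adjusted p = 0.0428 by edgeR), whose call was lost in 1 of 7 other settings and without any 1 library but shControl replicate 1 (adjusted p from 0.148 to 0.240). In the fit without that library the list had a median of -0.35, with 4 genes called lower and 0 higher, and 6 genes lay below 0. SPRING1 itself had a log2 fold change of 0.07 (adjusted p = 0.858).

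Among 13 cofactors and turnover factors of nuclear SREBP, 0 were called by edgeR, 0 had an unadjusted p under 0.05 and 0 were called by DESeq2, with a median of 0.01. Their smallest p-values belonged to LPIN1 and NFYC, at -0.34 and 0.17 on the log2 scale. These genes were at -0.52 and 0.22 without shControl replicate 1 (adjusted p = 0.00828 and 0.0733 by edgeR). The median turned to -0.16 without shControl replicate 1, with 4 genes lower and 1 higher. The list of lipoprotein uptake, which does not hold every gene of that process, had 13 genes, of which 1 was lower and 0 higher, with a median of -0.06. It was MYLIP, a ubiquitin ligase induced by LXR that degrades lipoprotein receptors. MYLIP had normalized counts of 149.7 ± 23.7 in shControl and 54.6 ± 23.5 in shSQLE (SD, n = 3 each), a change of -1.46 on the log2 scale (adjusted p = 0.0440 by edgeR). It lost its call in 2 of 7 other settings and without any 1 library but shControl replicate 1 (adjusted p from 0.0513 to 0.191). Without shControl replicate 1 the median of this list was 0.03, with 3 genes lower and 2 higher. Of the 5 other sterol carriers tested, 0 were called by edgeR or DESeq2, 1 was lower at an unadjusted p under 0.05 and the median was -0.06. That gene was GRAMD1B, at -0.28 (adjusted p = 0.288 by edgeR), and GRAMD1C followed at 0.26. These genes were at -0.34 and 0.20 without shControl replicate 1 (adjusted p = 0.00714 and 0.462 by edgeR). The median turned to 0.14 without shControl replicate 1, with 1 gene lower and 1 higher. STAR and STARD6 had too few counts to be tested.

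The targets of the SREBPs were listed by branch. Of 18 sterol synthesis genes other than SQLE, 10 had a log2 fold change below 0 and 8 above, with a median of -0.04, and 0 were called by edgeR, by DESeq2 or at an unadjusted p under 0.05. The smallest p-value belonged to HSD17B7, at -0.29, while CYP51A1, picked out after its value was seen as the gene farthest from 0, was at -0.75 with a standard error of 0.45. CYP51A1 had 31, 118 and 122 counts in shControl and 51, 34 and 72 in shSQLE, groups that overlapped. Without shControl replicate 1, HSD17B7 was at -0.21 and CYP51A1 at -1.11 (adjusted p = 0.132 and 0.00514 by edgeR). The median of this list was 0.12 without shControl replicate 1, where 3 genes were lower and 4 higher, close to the shares of all genes in that fit. Of 12 genes of fatty acid and triglyceride synthesis, all 12 had a log2 fold change below 0, with a median of -0.33, where 6420 of the 12450 genes tested lay below 0. None of these 12 was called by edgeR (0 genes), although 7 were lower at an unadjusted p under 0.05, against 1231 of all genes tested, and DESeq2 called 1, SCD. Its product, stearoyl-CoA desaturase, makes monounsaturated fatty acids, and SCD had 14590 ± 1474 and 10830 ± 573 normalized counts in shControl and shSQLE (SD, n = 3 each), a change of -0.43 on the log2 scale (adjusted p = 0.0997 by edgeR and 0.0323 by DESeq2). FASN, the fatty acid synthase, was at -0.35 (adjusted p = 0.145 by edgeR). SCD was at -0.51 and FASN at -0.275 without shControl replicate 1 (adjusted p = 0.0005 and 0.0127 by edgeR). Without shControl replicate 1 the median was -0.33 and 8 of the 12 were called lower, but 10 rather than 12 lay below 0, since ACSS2 was at 0.07 and MID1IP1 at 0.00. The difference between the lists was not tested.

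**Figure D4:**
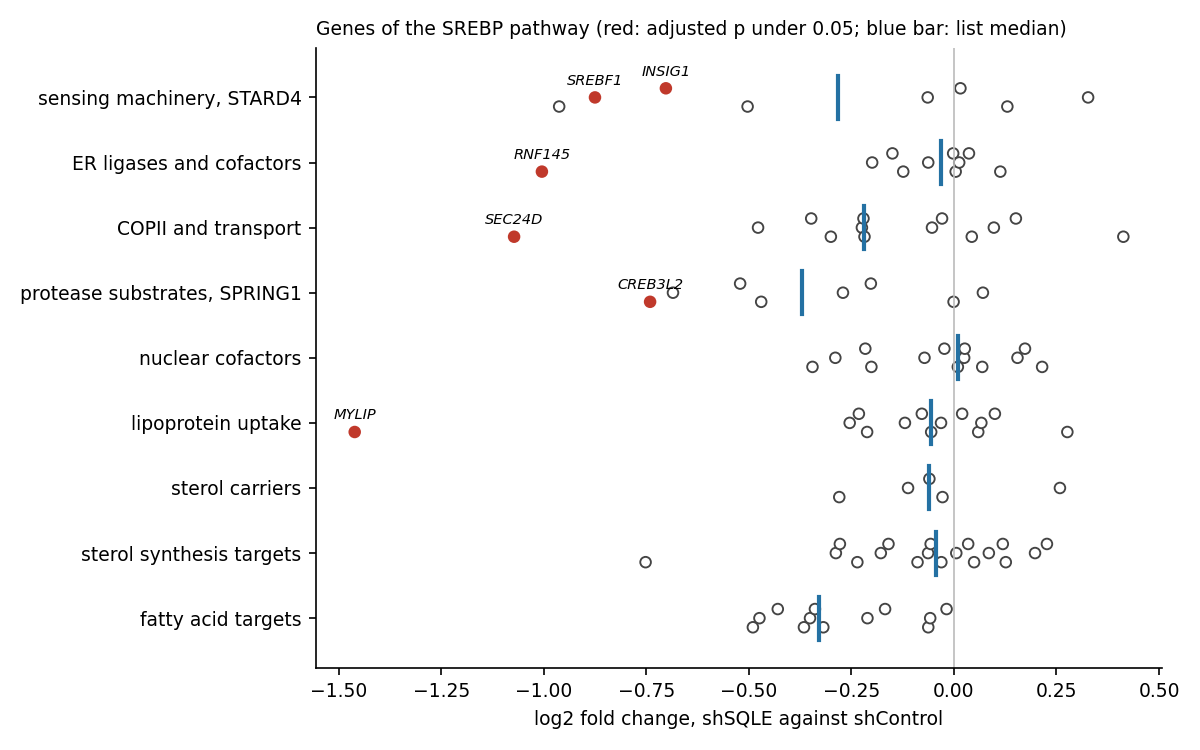
Log2 fold change of shSQLE against shControl for each gene tested in the sensing machinery with STARD4 and in the 8 other lists of the pathway (points, red where the adjusted p is under 0.05; blue bars, list medians). The red points are SREBF1, INSIG1, RNF145, SEC24D, CREB3L2 and MYLIP, all below 0, and all 12 fatty acid targets lie below 0 in this fit of 6 libraries.

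The genes of these lists whose log2 CPM was most like that of each member over the 6 libraries are given as a description, since 6 libraries in 2 groups, which share their scaling and the deviation of shControl replicate 1, set these values. SREBF1 was most like CREB3L1 and FASN (Pearson's r of 0.981 and 0.980), INSIG1 like CREB3L2 and RNF145 (0.940 and 0.940), INSIG2 like FADS1 and PNPLA3 (both 0.984), and STARD4 like GPAM and SEC24D (0.982 and 0.973). SCAP was most like ACAT2 and NFYC (0.979 and 0.965), MBTPS1 like KPNB1 and DAB2 (0.983 and 0.934), and MBTPS2 like RNF139 and ACLY (0.990 and 0.989). SREBF2, which varied least, had the lowest leading values, with FDFT1 and PMVK at 0.879 and 0.852.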

How the data were processed

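Poly(A) RNA of 6 U2OS libraries was sequenced as paired reads. The authors used fastp 0.20.0 for trimming, STAR 2.7.9a for alignment to hg38 and featureCounts 2.0 for counting, and deposited raw counts per gene that carry no normalization. The annotation release, strand setting and treatment of multi-mapping reads are not given in the sources used here. Of 19937 identifiers, 19905 matched a symbol and 3942 had no count.

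Counts were analysed in R 4.3.3. Genes passing filterByExpr (12450) were tested with edgeR 4.0.16, by its quasi-likelihood test of condition alone after TMM normalization, at a Benjamini-Hochberg adjusted p of 0.05. Standard errors were derived from each fold change and its F statistic, and 95% intervals from the degrees of freedom of that F. The test was checked on simulated counts, drawn with a common dispersion for all genes and with no library that stood apart. That check does not cover a library like shControl replicate 1. Overlaps and transcript lengths came from GENCODE v44, promoters and microRNAs from RefSeq.

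The genes, lists and tests were chosen with earlier results of these data known. The rule named the 8 members, SQLE, genes past the adjusted p in each list (or the 2 with the smallest p), and the 2 genes most like each member. Others named for their role or for overlap (SPRING1, RAI1, YY2, ACSS2, MID1IP1, some markers) were chosen after their values were seen. DESeq2 1.42.0, other size factors and filters, a block for the replicate number and leaving out each library were the alternatives. Same-numbered libraries did not pair throughout: their deviations had correlations of 0.14, -0.43 and 0.54 for numbers 1 to 3. The value for number 3 was not particular to that number, since shSQLE replicate 3 also had 0.47 with shControl replicate 2. The highest correlation of shControl replicate 1 was with shSQLE replicate 2 (0.54). The main fit therefore has no block. Some genes of the pathway, among them 1 that the rule names, are not reported here.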

Additional observations from a re-analysis of the deposited data

How the results depend on the processing

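Limits on these results came mainly from single libraries. Left-out libraries moved the count of genes called between 101 and 2300 lower and between 4 and 1964 higher, and that of the 8 members between 0 and 4 lower and between 0 and 1 higher, with the highest values without shControl replicate 1 in each case. DESeq2 called 556 genes lower and 158 higher. With the replicate block, 1 of the 8 genes was lower, SREBF1, since INSIG1 had an adjusted p of 0.0562. The numbers did not pair the libraries throughout, since not every library correlated best with its own number. In the other settings that kept all libraries (other size factors, library size only and both filters), INSIG1 and SREBF1 kept their calls. SREBF2 had a log2 fold change of -0.024 with library size only. That of MBTPS2 ranged from -0.283 to 0.086, and was 0.050 without shControl replicate 3, when 1 library was left out. The median of the sterol synthesis targets ranged from -0.094 to 0.122 when 1 library was left out, in fits that were added for the lists after seeing the data. The 3 ratios moved by less than the spread between replicates in every alternative run. The cause of these shifts was not tested. Each of the 8 genes had at least 146 counts in every library.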
